A study of Gossypium hirsutum with 6 samples.

Results

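The 200 gene models described here rose in a stepwise manner from leaf to ovule and again from ovule to fiber in allotetraploid cotton, *Gossypium hirsutum* acc. TM-1. They were taken from 77357 models in the deposited expression table. The data were polyA mRNA-seq libraries from untreated, greenhouse-grown plants of this 1 accession, with 2 biological replicates each of young leaves, of ovules at 0 days post anthesis (DPA, counted from flowering) and of fibers at 14 DPA. The labels name no treatment or transgene. Expression was given as FPKM, fragments mapped to a gene model relative to its length and to the size of the library.

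Members were chosen by their mean FPKM in the 3 tissues. Step a was the ratio (ovule + 1)/(leaf + 1) and step b was the ratio (fiber + 1)/(ovule + 1). A model was kept if step a was at least 2.5, step b lay between 2.5 and 10, both ovule libraries were above both leaf libraries and both fiber libraries were above both ovule libraries. This gave 426 models, of which the 200 with the largest smaller step became members. All 6 libraries took part in this choice, so the rise itself is a description and was not tested in the members.

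Cotton lint consists of seed hairs, which are unicellular outgrowths of the seed coat's surface layer. These cells begin to bulge on about the day of flowering, elongate for some weeks and then deposit a thick secondary wall of cellulose. An ovule at flowering therefore holds young fiber cells together with the other cells of the epidermis, the integuments and the nucellus, whereas the fiber sample is made of the outgrown cells. In such bulk tissue, more cells that express a gene and more RNA per cell cannot be told apart.

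Identifiers in the table have the prefix Cotton_A or Gorai, called A-prefix and D-prefix models below. A search for the 77357 identifiers in RefSeq annotation of this cotton matched 0, so the models are given without gene names, roles or positions, and the tissue labels could not be checked against marker genes. Step a is a comparison of tissues and not a course in time, since the leaf does not give rise to the ovule. Step b compares ovules at 0 DPA with fibers at 14 DPA, which grow out of the ovule's surface layer. Tissue and stage cannot be told apart in it. Replicates of a tissue were alike across the 42214 models with a mean of at least 0.5 FPKM, with a Pearson correlation of log2(FPKM + 1) of 0.978 between leaf, 0.982 between ovule and 0.986 between fiber libraries, and models are not independent replicates. Summed FPKM lay between 927473 and 1014584 per library.

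The members were nearly silent to moderate in leaf, low to high in ovule and moderate to very high in fiber. Median levels over the members were 1.08 FPKM in leaf tissue, 10.3 FPKM in the ovule and 57.7 FPKM in the fiber. Leaf means ran from 0 to 56.0 FPKM, ovule means from 2.09 to 1162 FPKM and fiber means from 10.5 to 4016 FPKM. The ranges of the tissues overlapped across members, but within each member they did not, as the rule required.

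**Figure D1:**
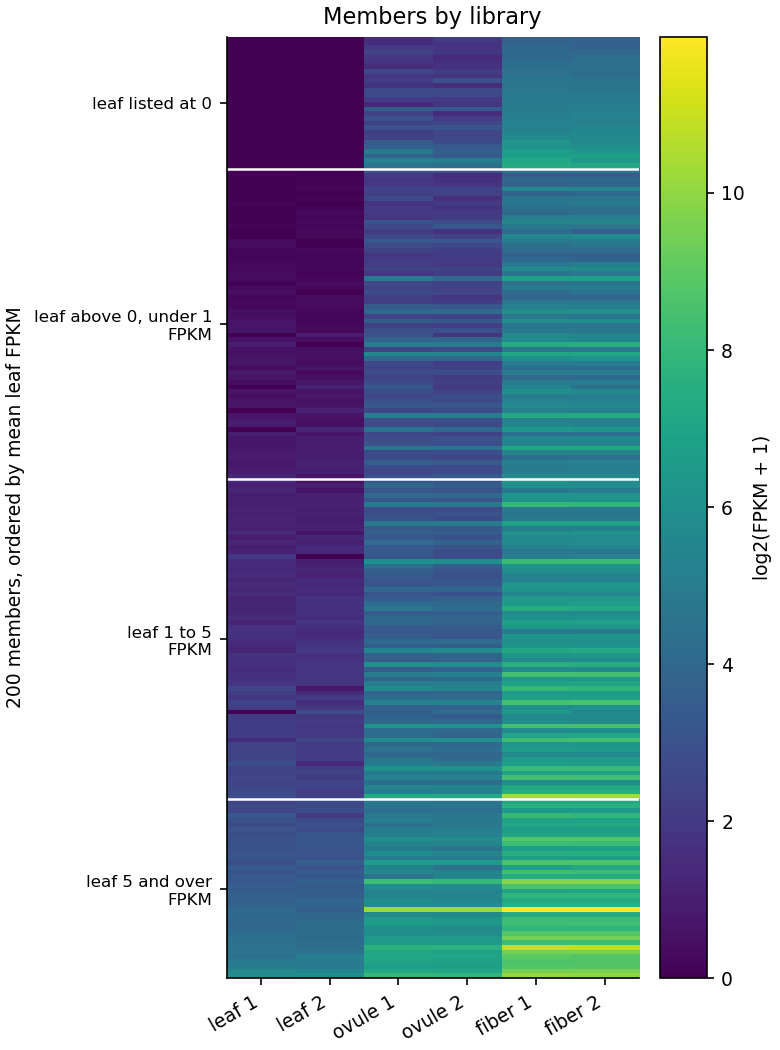
Heat map of log2(FPKM + 1) in the 6 libraries (columns) for the 200 members (rows), ordered by mean leaf FPKM, with white lines between the classes of leaf level. The 28 members at the top were listed at 0 in both leaf libraries, and the brightest row, Gorai.012G041900, reached 4066 and 3966 FPKM in fiber.

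Members accounted for a small share of expression that grew with each step. As a percentage of all FPKM in a library, they took 0.0749% ± 0.00305 in leaf, 0.649% ± 0.0113 in the ovule and 3.12% ± 0.0757 in the fiber (mean ± SD, n = 2). The 10 members of highest fiber level made up 41.2% and 40.6% of the members' sum in the fiber libraries. A total of 49 members were among the 1000 models of highest mean FPKM in fiber. Fiber means were at least 100 FPKM in 66 members, between 20 and 100 FPKM in 113 and under 20 FPKM in 21.

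On the deposited scale, the steps were of similar size over the members. The rule ranks models by the smaller step and sets the same lower limit for both, which favours such a balance. Step a had a median of 4.37 and ranged from 3.09 to 77.8, and step b had a median of 4.64 and ranged from 3.09 to 9.95, where the upper end is set by the rule. From leaf to fiber, the ratio (fiber + 1)/(leaf + 1) had a median of 23.8 and ranged from 10.1 to 269. The step into the ovule made up a median of 49.4% of this rise on the log2 scale, and between 34.2% and 77.8% in single members. Step a was the larger in 95 members and step b in 105. In 47 members the larger step was over 2 times the smaller, and in 32 of these it was step a, which has no upper limit in the rule, whereas step b is limited to 10.

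**Figure D2:**
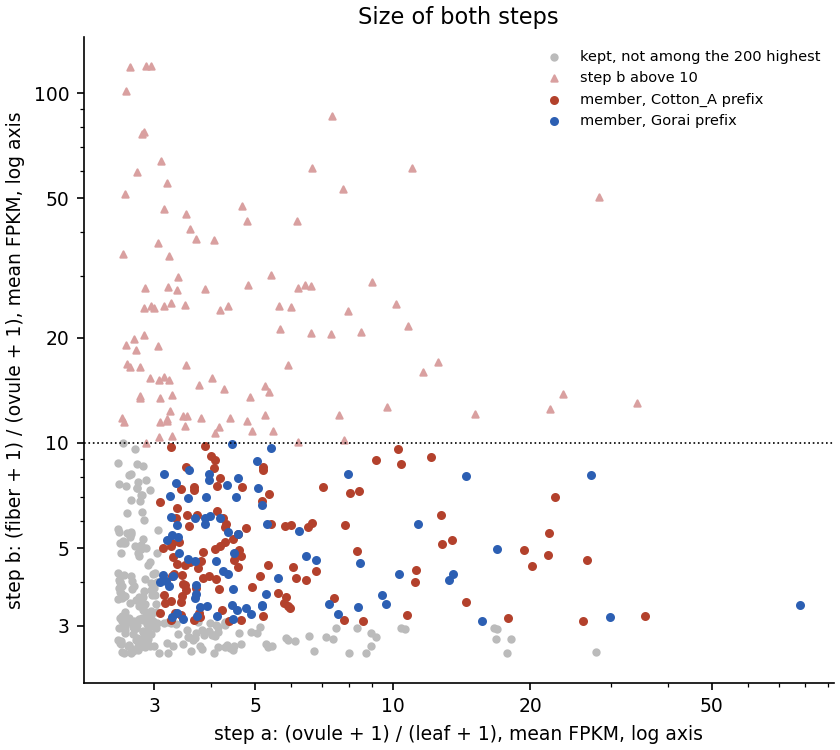
Step a, the rise from leaf to ovule, against step b, the rise from ovule to fiber, each as a ratio of mean FPKM + 1 on a log axis, for all 534 models that met the rule without an upper limit on step b. Members are coloured by prefix, the 226 further models kept by the rule are grey, and the 108 triangles above the dotted line are models with a step b above 10.

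The members ranked first were those with the largest smaller step. Cotton_A_03980 was at 2.14 and 2.59 FPKM in leaf, 32.1 and 34.9 FPKM in ovule and 333 and 329 FPKM in the fiber libraries. Its steps were 10.3 and 9.61, so that each tissue was about an order of magnitude above the one before. Cotton_A_00486 had the same shape at a higher level, with 22.7 and 20.7 FPKM in leaf, 210.5 and 205 FPKM in ovule and 1886 and 1854 FPKM in fiber. Its steps were 9.19 and 8.96, and by mean FPKM in fiber it was number 33 of all models in the table.

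Cotton_A_21155 was at 4.37 and 1.85 FPKM in leaf, 40.6 and 43.2 FPKM in ovule and 363 and 382 FPKM in fiber. Gorai.011G142200 lay close to it, at 4.91 and 3.43 FPKM in leaf, 41.2 and 39.3 FPKM in ovule and 336 and 333 FPKM in fiber. In both models the leaf libraries differed more between replicates, as a ratio, than the ovule or fiber libraries did. Cotton_A_22930, at 1.38 and 2.33 FPKM in leaf, 26.3 and 17.7 FPKM in ovule and 169 and 160.2 FPKM in fiber, and Cotton_A_14850, at 6.92 and 7.81 FPKM in leaf, 61.8 and 53.8 FPKM in ovule and 437 and 443 FPKM in fiber, also had steps of similar size. Their steps were 8.06 and 7.20, and 7.03 and 7.50.

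On the deposited scale, 3 other members of this leading group rose clearly more into the ovule than out of it. Gorai.010G019800 was at 5.80 and 3.93 FPKM in leaf, 157 and 159 FPKM in ovule and 1308 and 1274 FPKM in fiber, with steps of 27.1 and 8.12. Gorai.012G054200 was at 1.03 and 1.12 FPKM in leaf, 30.9 and 27.2 FPKM in ovule and 251 and 231 FPKM in fiber, with steps of 14.5 and 8.05. Cotton_A_15530 was at 0.695 and 0.942 FPKM in leaf, 23.4 and 21.1 FPKM in ovule and 144 and 144 FPKM in fiber, with steps of 12.8 and 6.24. The fiber replicates of these 3 models lay close together, whereas each model's tissues were separated several-fold and did not overlap. Under median-of-ratios scaling, described below, the log2 steps of Gorai.012G054200 were 3.32 and 3.48, so that step b was the larger. They were nearly equal in Cotton_A_15530, at 3.16 and 3.11. In Gorai.010G019800 step a stayed the larger, at 4.12 against 3.51.

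The 3 remaining models of the first 12 were listed at 0 in both leaf libraries, so their first step has no true ratio and depends on the added 1. Cotton_A_35901 was at 13.2 and 9.03 FPKM in ovule and 109 and 109.9 FPKM in fiber. Cotton_A_26261 was at 22.7 and 20.7 FPKM in ovule and 167 and 149.7 FPKM in fiber. Cotton_A_05069 was at 9.37 and 5.50 FPKM in ovule and at 74.5 and 46.4 FPKM in fiber, the widest difference between fiber replicates among the 12 as a ratio.

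**Figure D3:**
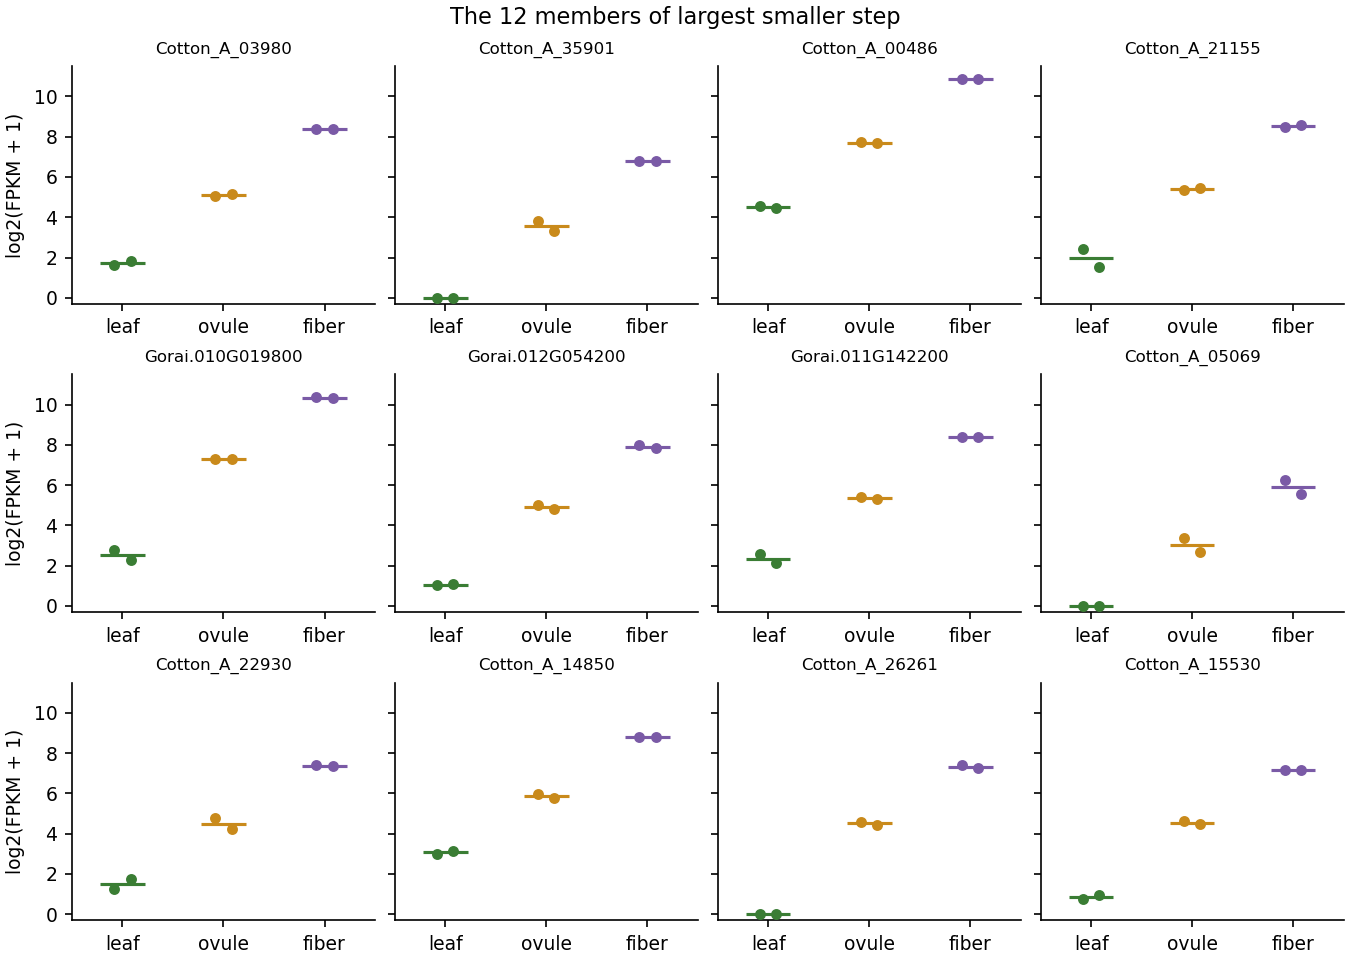
log2(FPKM + 1) in leaf, ovule and fiber for the 12 members with the largest smaller step; points are the 2 libraries of a tissue and bars their mean. In every panel the points of a tissue lie close to each other relative to the distance between tissues, and 3 panels start at 0 in leaf.

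Among the 6 members of highest expression in fiber, step a was the larger in 5 on the deposited scale, and in Cotton_A_05217 it was step b. The steps were nearly equal in Cotton_A_00486 (9.19 and 8.96) and Gorai.002G037500 (4.35 and 4.23). Steps this close can change order with the scaling. In Cotton_A_00486, for example, step b was the larger under each of the other scalings described below. Gorai.012G041900 was the highest, at 16.3 and 11.6 FPKM in leaf, 1172 and 1153 FPKM in ovule and 4066 and 3966 FPKM in fiber. It had the largest step a of all members, 77.8, and a step b of 3.45, so that it was already abundant in the ovule. This model made up 18.5% and 19.4% of the members' sum in ovule, 13.5% and 13.4% in fiber and 2.17% and 1.57% in leaf. Cotton_A_22208 had the same form, at 8.43 and 11.8 FPKM in leaf, 312 and 265 FPKM in ovule and 888 and 907 FPKM in fiber, with steps of 26.1 and 3.10.

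The 6 members of highest leaf level had smaller steps between 3.13 and 5.31. Gorai.002G037500 had the highest leaf level, at 54.7 and 57.3 FPKM, and was at 255 and 239 FPKM in ovule and 1094 and 1001 FPKM in fiber, with steps of 4.35 and 4.23. Cotton_A_05217 was at 48.2 and 42.7 FPKM in leaf, 156 and 133 FPKM in ovule and 727 and 732 FPKM in fiber, with steps of 3.13 and 5.02. Gorai.008G284800 was at 22.5 and 22.4 FPKM in leaf, 131 and 116 FPKM in ovule and 726 and 729 FPKM in fiber, with steps of 5.31 and 5.85. The other members among the 6 of highest leaf level, Cotton_A_32263, Gorai.006G070600 and Gorai.002G154400, had smaller steps of 3.31, 3.43 and 3.39 and fiber levels between 410 and 499.9 FPKM.

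Leaf level divided the members into classes that differed in how far the added 1 shaped the first step. In 28 members both leaf libraries were listed at 0, in 66 the leaf mean was above 0 and under 1 FPKM, in 68 it lay between 1 and 5 FPKM and in 38 it was at least 5 FPKM. Median fiber levels in these classes were 30.4, 31.1, 76.1 and 272 FPKM in that order. In the 106 members with a leaf mean of at least 1 FPKM, the ratio of mean FPKM without the added 1 had a median of 5.43 from leaf to ovule, 4.71 from ovule to fiber and 30.6 from leaf to fiber. The corresponding ranges were 3.18 to 83.4, 3.11 to 9.87 and 10.7 to 288.

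The 28 members listed at 0 in leaf were mostly low in the ovule. Their ovule means ran from 2.09 to 34.6 FPKM with a median of 4.28 FPKM, and their fiber means from 11.3 to 158 FPKM. An exact 0 is given here as listed and is not read as absence of the transcript. A further 21 members were at 0 in 1 of the leaf libraries.

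The ratio of fiber to ovule without the added 1 was above 10 in 9 members, which stayed under the limit of 10 only through the added 1. Gorai.006G047300, the member nearest that limit, was at 0.202 and 0.174 FPKM in leaf, 4.45 and 4.10 FPKM in ovule and 50.6 and 52.4 FPKM in fiber. Its step b was 9.95, against 12.04 without the added 1. Just outside, Gorai.010G159600 and Cotton_A_39835 had a step b of 10.01 and 10.1.

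At the end of the ranking, members and non-members were alike. Cotton_A_13142, the last but one member, was at 8.04 and 5.25 FPKM in leaf, 33.4 and 31.5 FPKM in ovule and 103 and 101.8 FPKM in fiber, and its smaller step was 3.09. Cotton_A_26659, at rank 200, was at 16.5 and 13.8 FPKM in leaf, 48.3 and 49.4 FPKM in ovule and 161 and 162 FPKM in fiber, and its smaller step was 3.088. The next models, Cotton_A_03769 and Gorai.007G114700, had smaller steps of 3.08 and 3.07. The lower limits of 2.5 did not touch any member.

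Replicates differed least in fiber. The higher replicate exceeded the lower by a median factor of 1.04 in fiber and 1.14 in ovule, over all 200 members, and 1.29 in leaf, over the 151 members above 0 in both leaf libraries. The rule required a gap above 0 between the libraries of successive tissues, so its size is only described. The median gap on the log2(FPKM + 1) scale was 1.91 from the highest leaf to the lowest ovule library, with a minimum of 0.66. From the highest ovule to the lowest fiber library, the median was 2.08 and the minimum 1.15. The median SD between replicates on the same scale was 0.13 for leaf, 0.12 for ovule and 0.04 for fiber. Over all tested models, it was 0.10, 0.09 and 0.08.

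Against the spread between replicates, 194 of the 200 members were called higher in both steps by limma (Benjamini-Hochberg adjusted p under 0.01 and over 2-fold on the log2(FPKM + 1) scale), where 2.58% of the 42214 tested models were. All members were among the tested models. In the first step 196 members were called, against 31.1% of tested models, and in the second step 195 were called, against 16.8%. Because the rule used these contrasts, nothing is read from the members' counts. By the study's own calling rule, over 2-fold and P under 0.01 without adjustment, 134 members and 569 of the tested models were called in both steps. The 6 members that limma did not call in both steps all had the A prefix. Their leaf replicates either differed over 3-fold or included a library listed at 0. For example, Cotton_A_08937, chosen after its values were seen, was at 4.62 and 0.745 FPKM in leaf, 51.9 and 40.3 FPKM in ovule and 251 and 231 FPKM in fiber.

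To read the steps in libraries that took no part in the choice, the rule was applied to the 3 libraries numbered 1 and the models found were read in the 3 libraries numbered 2. Of the 200 highest models, 191 had leaf below ovule and ovule below fiber in the libraries numbered 2, and 173 had both steps at or above 2.5. Median steps were 4.41 and 4.59 in the libraries used and 4.07 and 5.11 in those not used. With the numbers exchanged, 196 of 200 models were in order and 181 had both steps at or above 2.5, with median steps of 4.34 and 4.69 in the libraries used and 4.53 and 4.59 in those not used. Both steps exceeded 2 in 181 and 192 of these models. Of all tested models, which were not matched in level, 2.64% and 2.94% reached this in the same libraries. The whole rule was met again in 163 and 178 of the chosen models. The lowest step a in the libraries not used was 0.016 and 0.597, and the lowest step b was 0.289 and 0.886. A step under 1 is a fall, so the rise was not seen again in every chosen model. With 1 library per tissue, no test of these values was possible. The choices on libraries 1 and 2 shared 160 and 163 models with the 200 members.

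The depth behind the values could be read from whole-number ratios between libraries, which gave the smallest number of reads that explains a model's values. Such reads are lower bounds, since a factor common to all libraries is not seen. They were obtained for 153 members, of which 118 had the A prefix and 35 the D prefix, so they describe nearly all A-prefix members and fewer of the D-prefix ones. Medians were 5 and 4 reads for the leaf replicates, 76 and 59 for ovule and 462 and 422 for fiber. Recovered reads over both leaf libraries numbered under 10 in 78 members, where the true number may be higher, while 118 members had at least 50 reads over both ovule libraries.

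Recovered numbers were low throughout in a few members. All 9 members with fewer than 100 recovered reads over the 6 libraries had the A prefix, but reads were recovered for fewer of the D-prefix members. Cotton_A_12000, chosen after its values were seen, had the fewest and was listed at 0 in leaf, at 27.6 and 10.8 FPKM in ovule with 3 and 1 recovered reads, and at 104 and 74.6 FPKM in fiber with 13 and 9 recovered reads. Its step a was 20.2. Cotton_A_03980 had at least 16 and 20 leaf reads, 296 and 274 ovule reads and 3535 and 3363 fiber reads, while Cotton_A_05069 had 0 recovered leaf reads, 6 and 3 ovule reads and 55 and 33 fiber reads.

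The prefix of the identifier was not used by the rule. Of the 200 members, 119 (59.5%) had the A prefix, compared with 48.8% of the 42214 tested models, 51.0% of the tested models at 6 FPKM or more in fiber and 51.4% of the 1090 models called higher in both steps. The share differed between members of low and of higher leaf level. Among the 94 members with a leaf mean under 1 FPKM, 67 (71.3%) had the A prefix, whereas it was 52 of 106 (49.1%) among the others. Tested models with at least 10 FPKM in fiber had shares of 54.0% and 51.8% in the same leaf classes. Among the 93 models of low leaf level that the rule kept beyond the 200 highest, the share was 55.9%. Tested models of low leaf level stood at 48.7% in all and at 54.0% with at least 10 FPKM in fiber.

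Read worth was compared between the prefixes over all leaf levels, for members with recovered reads. In fiber replicate 1, 1 recovered read was worth a median of 0.124 FPKM in A-prefix members and 0.0831 FPKM in D-prefix members. The medians were 0.0883 and 0.0624 FPKM in tested models of each prefix with reads recovered in that library. Those were 18256 of 20616 A-prefix and 7687 of 21598 D-prefix tested models, so most D-prefix models are missing. As recovered reads are lower bounds, each worth is an upper bound. The worth of a read rises as the model gets shorter. Without the 9 members of fewer than 100 recovered reads, the A-prefix share at low leaf level was 68.6%. Reads were recovered for 118 of 119 A-prefix but 35 of 81 D-prefix members, so many D-prefix members could not be removed this way. Nothing about depth is read from that share. The part of model length and depth in the difference was not tested, nor was the division of reads between near-identical A and D copies, of which uniquely mapped reads were kept.

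**Figure D4:**
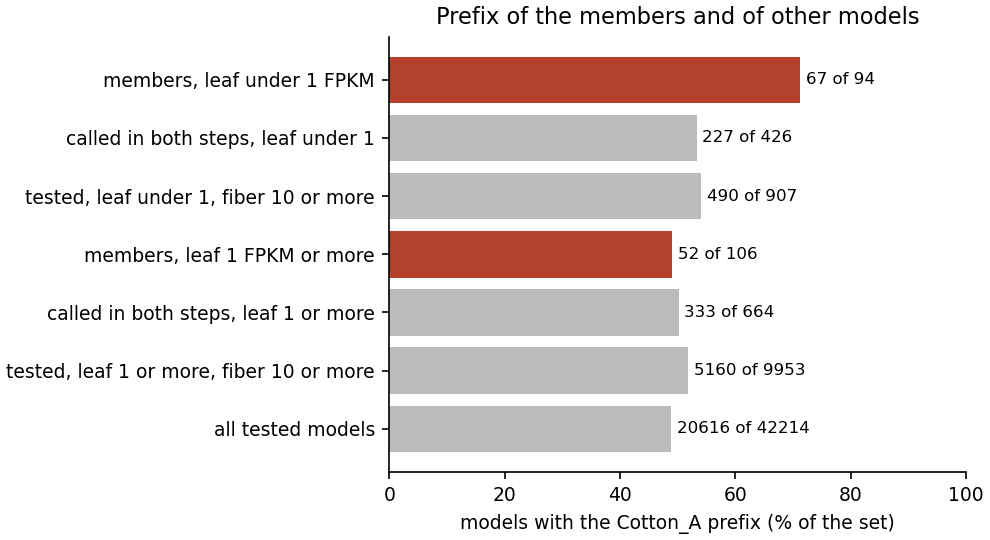
Percentage of models with the Cotton_A prefix among members (red) and other sets of models (grey), divided by mean leaf FPKM, with counts beside the bars. Members under 1 FPKM in leaf stand at 71.3%, and the other 6 sets drawn lie between 48.8% and 54.0%.

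Median steps differed little between the prefixes, and this was not tested. Step a had a median of 4.38 in A-prefix and 4.36 in D-prefix members, and step b had a median of 4.74 and 4.60. D-prefix members had higher median levels, with median FPKM of 1.71 for leaf, 14.2 for ovule and 75.3 for fiber, against 0.779, 8.87 and 49.7 in A-prefix members. The ranges of both prefixes overlapped in every tissue.

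Members were scattered over the identifiers and mostly did not stand beside each other. D-prefix members occurred with each of the 13 numbers that follow the prefix, from 3 members (numbers 11 and 12) to 11 (number 9), which is between 0.192% and 0.516% of the tested models with a given number. A single pair of D-prefix members stood next to each other in identifier order. Gorai.009G188400 was listed at 0 in leaf and at 4.12 and 2.81 FPKM in ovule and 16.4 and 15.6 FPKM in fiber, and Gorai.009G188500 was at 0.804 and 0.931 FPKM in leaf, 5.46 and 6.28 FPKM in ovule and 40.5 and 41.5 FPKM in fiber. The pair thus differed in level and in the relative size of the steps.

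Cotton_A_23436 and Cotton_A_23437, named after their values were seen, were the only A-prefix members with adjoining numbers. They were at 3.91 and 4.83 FPKM and at 5.26 and 4.39 FPKM in ovule, and at 38.6 and 35.9 FPKM and at 45.5 and 50.2 FPKM in fiber. Leaf values of the former were listed at 0 and those of the latter were at 0 and 0.241 FPKM. Among the 106 tested non-members directly beside a D-prefix member, 3 (2.83%) were called higher in both steps. Beside an A-prefix member it was 7 of 144 (4.86%). Over all tested non-members of each prefix, these neighbours included, it was 2.09% for D and 2.18% for A. These counts are small, and whether the order of A-prefix numbers follows the genome is not given in the sources used here.

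The relative size of the steps depended on the scaling between libraries. As deposited, the tested models had a median log2 change of 0.48 into the ovule and -0.42 from there to fiber, and 0.00 and -0.08 with median-of-ratios scaling. The median log2 step of the members changed from 2.13 to 1.63 for step a and from 2.22 to 2.67 for step b under that scaling. No member changed direction under this or the other scalings tried, but 138 of the 200 still met all limits on the steps with median-of-ratios scaling, 179 with quantile normalization and 191 with rescaling without the 100 highest models. With these scalings, step b was the larger in 167, 154 and 137 members, compared with 105 as deposited, so the even balance of the steps was seen on the deposited scale and not on these.

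**Figure D5:**
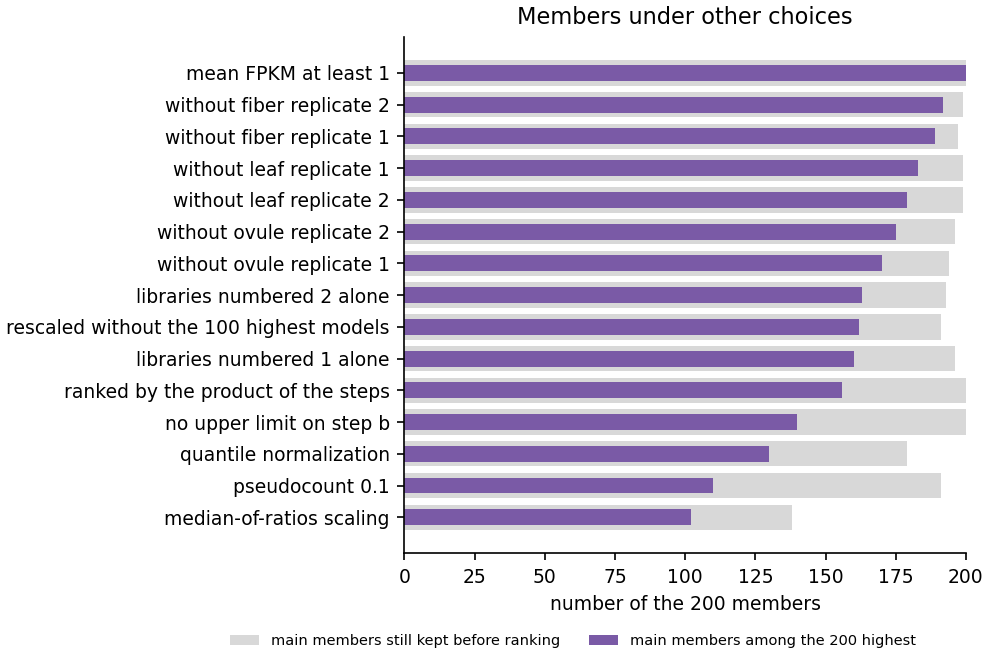
Number of the 200 members that the rule still kept (grey) and that were still among its 200 highest models (purple) under each other choice of scaling, pseudocount, limit, ranking or libraries. Median-of-ratios scaling kept 138 members, 102 of them among the highest, and leaving out any single library kept at least 194.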

How the data were processed

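Strand-specific, single-end mRNA-seq libraries of leaf, ovule and fiber were analysed, with 2 replicates per tissue taken from the sample titles. The authors deposited FPKM values for each library. According to the methods of the study, TopHat was used to align reads to the genome of TM-1, and Cufflinks to quantify uniquely mapped reads over genes. Base calls came from CASAVA 1.8 according to the submitters' processing notes, and no other version was given. The identifiers are not TM-1 gene identifiers, and the methods of the study do not name the annotation they come from. FPKM is a share of the library, and no scaling between libraries is described.

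The members, lists and tests were chosen with earlier results of these data known. The background calls used limma 3.58.1 in R 4.3.3 on log2(FPKM + 1), in 1 model over the 6 libraries with a variance trend and robust fitting, for models with a mean of at least 0.5 FPKM. The added 1 compresses changes of weakly expressed models. The study's own rule, without adjustment for multiple tests, was an alternative, applied to the same log2(FPKM + 1) values and models. Replicates are biological according to the methods, and the calls measure the spread between these libraries only.

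Relative depth was found from models under 1 FPKM and was 0.704 and 0.728 in leaf, 0.867 and 0.740 in ovule and 0.964 in fiber replicate 2, relative to fiber replicate 1. Read numbers were accepted where all libraries came within 0.05 of a whole read and chance matches were expected at no more than 0.001, which held for 33241 of 51808 models above 0 in 2 or more libraries (64.2%). Procedures were tested on simulated data. Named models were the 12 of largest smaller step, the 6 highest each in fiber and leaf, the first 3 per prefix, D-prefix neighbours and the models at the limits of the rule; 2 of the highest in fiber are among the first 12.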

Additional observations from a re-analysis of the deposited data

How the results depend on the processing

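Choice of members depended most on the pseudocount and the scaling. The 200 highest models shared 110 with the members at a pseudocount of 0.1, where the rule kept 959 models, 130 after quantile normalization and 102 under median-of-ratios scaling. Models called higher in ovule than leaf fell to 7475 with median-of-ratios scaling, and models called higher in both steps to 569 by the study's rule; the causes were not tested. The A-prefix share of members lay between 58.0% and 62.5% under all alternatives of the rule, but at low leaf level it was 60.4% with a pseudocount of 0.1, 61.8% under median-of-ratios scaling, 64.4% after quantile normalization and 55.9% in the models kept beyond the 200 highest. That value and its alternatives were added after the data had been seen. Of 500 log2 steps of 25 named members recomputed under alternatives, 0 changed sign and 127 moved by more than the replicate SD. These alternatives include leaving out each library in turn, which could not change a sign, since the rule allowed no overlap between tissues. Such a removal can also hardly move a step beyond the replicate SD, so the count does not measure how stable the steps are. Leaving out each library in turn left 170 to 192 of the members among the highest 200. The lone library of such a tissue was taken to vary as the other tissues did. With replicate number as a block, 1081 models were called higher in both steps, against 1090 without it; the numbers were not taken as pairs, because replicate differences correlated at -0.06, -0.06 and 0.05 between tissues and the labels name no shared batch. Recovered reads are lower bounds, so counting error of the low leaf values is unknown.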
